A study of Mus musculus with 36 samples.

Results

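The chromosome 2 zinc finger gene cluster was examined as the genes of any biotype annotated between 174.5 and 178.0 Mb of chromosome 2 in the mouse genome build GRCm38 whose estimated read counts summed to 10 or more over 36 RNA-seq libraries. Within the interval, members were chosen by position and by their summed read counts, and genotype labels were not part of that rule. The interval itself was selected on expression values of these same dKO and WT libraries, with earlier results known. The shares of members called, set below beside those of all genes, are therefore descriptions and not independent tests of enrichment. Of 90 genes annotated there, 86 had a row in the files and 57 reached the minimum, out of 54115 genes in all. The 57 members comprised 39 protein-coding genes, 12 unprocessed pseudogenes, 4 processed pseudogenes, 1 pseudogene of another class and 1 lincRNA. The members nearest above the minimum were Gm14445, with 14.0 counts over all libraries, and Gm14404, with 17.6, and the genes nearest below it were Gm14402 with 7.94, Gm14428 with 7.47, Gm11007 with 6.25 and Gm14439 with 6.2.

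The study compared mice that constitutively lack both macroH2A histone variants (double knockout, dKO), encoded by H2afy and H2afy2, with wild-type (WT) mice. Both genotypes carried the Braf CA and Tyr-CreERT2 alleles, the second an inducible Cre driven by a melanocyte promoter, and melanomas were started with topical 4-hydroxytamoxifen and collected 50 days later. The libraries were made from whole melanomas (bulk tumours, 6 dKO and 6 WT in 3 library batches of 2 and 2, with 1 female and 5 male dKO mice and 4 female and 2 male WT mice), from CD8 T cells sorted from tumours (4 dKO and 4 WT, mice aged 9 weeks at induction) and from cancer-associated fibroblasts sorted on CD140a (CAFs, 4 dKO and 4 WT, aged 10 weeks at induction), the sorted sets with 2 females and 2 males per genotype. The paper describes the libraries within each mouse experiment as coming from independent tumours. Whether the mice with bulk tumours also gave sorted cells, and their ages, are not given in the sources used here. Immortalized dermal fibroblasts (iDFs) were derived from the skin of dKO and WT mice without tumours and were starved for 24 h in 0.5% serum before 0 or 30 min in 10% serum, with 2 replicates of each genotype and time, all male. Nothing in the labels says that the 2 replicates came from separate animals, so iDF p-values measure the spread between cultures, which may be technical. The mice of the melanoma lines had a mixed background, mostly 129S with C57BL/6 and FVB. In these lines the dKO mice were bred from a 129S6 macroH2A knockout strain and the WT mice from 129S6/SvEvTac. The paper states this breeding for the melanoma lines only, so the strain of the iDF donors remains unknown. A difference between mouse and iDF results may therefore also reflect donor strain, which was not tested. GRCm38 is the C57BL/6J sequence, and the strain origin of the interval in each animal was not measured here.

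KRAB zinc finger proteins pair an amino-terminal KRAB domain with a tandem array of C2H2 zinc fingers that reads DNA sequence. The KRAB domain recruits the corepressor TRIM28 (KAP1), which brings the histone methyltransferase SETDB1 and heterochromatin protein 1 to the bound site, and many of these proteins silence transposable elements in the mouse. Their genes lie in clusters that grow by tandem duplication, and neighbouring copies can be nearly identical. No target or function is assigned here to a member known only by a gene model number.

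The KRAB A box of these genes was encoded by an exon of 127 bases, found in 42 annotated genes of the interval, of which 36 were members. Among the 42 genes the exon occurred in 18 distinct forms. Exons of 8 members are printed because they show how little sequence separates the genes whose values follow. They were read 5′ to 3′ on the strand of the gene from the Gencode transcripts, with positions in GRCm38. Capitals mark each base that differs from the most frequent base of the 42 exons at that position.
Gm14305, chr2:176718957-176719083 (+ strand): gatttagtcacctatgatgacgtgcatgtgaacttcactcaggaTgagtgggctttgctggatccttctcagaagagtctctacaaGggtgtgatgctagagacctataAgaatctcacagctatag
Gm14295, chr2:176807362-176807488 (+ strand): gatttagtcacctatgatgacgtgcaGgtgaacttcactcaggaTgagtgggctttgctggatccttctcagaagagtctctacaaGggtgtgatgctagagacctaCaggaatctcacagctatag
2210418O10Rik, chr2:176235319-176235445 (+ strand): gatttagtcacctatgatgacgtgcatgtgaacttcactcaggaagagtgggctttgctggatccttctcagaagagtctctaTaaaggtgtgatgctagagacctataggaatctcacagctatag
Zfp965, chr2:175477999-175478125 (+ strand): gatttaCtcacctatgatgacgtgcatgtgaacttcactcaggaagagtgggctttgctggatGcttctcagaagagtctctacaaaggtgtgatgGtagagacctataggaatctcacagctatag
Gm6710, chr2:175878229-175878355 (+ strand): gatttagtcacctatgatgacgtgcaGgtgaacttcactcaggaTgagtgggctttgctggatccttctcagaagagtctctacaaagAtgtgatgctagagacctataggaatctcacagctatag
Gm14443, chr2:175171848-175171974 (- strand): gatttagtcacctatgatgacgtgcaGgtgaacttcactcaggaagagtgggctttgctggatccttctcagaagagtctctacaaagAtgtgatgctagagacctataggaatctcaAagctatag
Gm14325, chr2:177834520-177834646 (- strand): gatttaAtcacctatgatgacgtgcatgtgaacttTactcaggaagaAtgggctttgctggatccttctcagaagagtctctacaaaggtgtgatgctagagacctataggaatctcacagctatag
Zfp972, chr2:177921689-177921815 (- strand): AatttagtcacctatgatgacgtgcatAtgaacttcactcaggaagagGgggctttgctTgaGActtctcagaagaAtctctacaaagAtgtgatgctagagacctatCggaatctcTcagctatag
The form of Gm14305 was identical in 9 genes (Gm11007, Gm14305, Gm14308, Gm14410, Gm14434, Gm2007, Gm2026, Gm4631 and Gm4724) and the form of Zfp965 in 5 (Gm14288, Gm14435, Gm14440, Zfp965 and Zfp973). The form of 2210418O10Rik was shared with Gm14296, and that of Gm6710 with Gm14391. Gm14295, Gm14443, Gm14325 and Zfp972 each had a form of their own. No gene was equal to the consensus at every base, and Zfp972 was farthest from it, with 10 differences.

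The last exon, which encodes the zinc fingers, was close between copies as well. Gm14305 and 5 other members (Gm14308, Gm14434, Gm2026, Gm4631 and Gm4724) differed at 6 of 1303 bases (0.46%) and Gm14305 and Gm14325 at 62 (4.76%). Of the 1229 windows of 75 bases, the read length, in this exon of Gm14305, 897 were identical in place in Gm4631. The following window (bases 717 to 791 of the exon) is printed because a read from it can tell these 3 genes apart. Capitals mark differences from Gm14305.
Gm14305, chr2:176721224-176721298 (+ strand): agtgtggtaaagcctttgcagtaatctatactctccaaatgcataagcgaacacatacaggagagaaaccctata
Gm4631, chr2:175325258-175325332 (- strand): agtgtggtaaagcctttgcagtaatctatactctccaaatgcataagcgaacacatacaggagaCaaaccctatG
Gm14325, chr2:177832306-177832380 (- strand): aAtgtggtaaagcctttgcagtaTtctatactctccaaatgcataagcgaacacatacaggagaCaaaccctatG
The 2 differences of Gm4631 were the same in Gm14308, Gm4724, Gm14434 and Gm2026, so a read of this window separated Gm14305 from those copies but not the copies from each other. Finger counts are the highest over the annotated coding sequences of a gene. C2H2 finger motifs were most numerous in Gm14295 (25), followed by Gm14399 (18), Gm2004 and Gm14419 (17 each), and Gm14443, Gm14391 and Gm6710 (16 each). Gm14305, Gm14325 and Zfp970 had 14, Gm4631, Gm4724, Gm2026, Gm14434 and Gm14308 had 13, Zfp966 and Zfp968 had 11, Zfp965 and Zfp973 had 6, and 2210418O10Rik and Gm14296 had 1. Gm14288 and Zfp972 encoded the KRAB exon with 0 finger motifs.

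In order along the chromosome, the members with the most detail here were annotated as Gm14443 at chr2:175166255-175175871 (-), Gm4631 at chr2:175321955-175338197 (-), Gm4724 at chr2:175422300-175435807 (-), Zfp965 at chr2:175469985-175482171 (+), Gm14288 at chr2:175789357-175801093 (-), 2210418O10Rik at chr2:176226569-176240328 (+), Gm14305 at chr2:176708328-176721813 (+), Gm14295 at chr2:176798612-176811223 (+), Gm14296 at chr2:176892509-176927809 (-) and Zfp972 at chr2:177903340-177925613 (-), with strands in brackets and all positions in GRCm38. All are protein-coding.

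The share of 75-base windows found in no other annotated gene had a median of 24.0% over the 57 members. It was under 10% in 19 members, 0 in 6 of them, and at least 90% in 4. A single window occurred in up to 20 genes, and 562 of 1596 pairs of members shared at least 1 window. Outside the interval 33 genes shared windows with it, most of all Zfp971, with 658. A further 21 of 179 annotated transcripts of the interval had no row, and each of them was identical in sequence to a transcript with a row, so its reads were counted under another name. The 3 transcripts of Gm14296 without a row were equal to transcripts of 2210418O10Rik. Values of single members are therefore uncertain where the counting could split reads between copies. Members whose shared windows made up at least 50% of those of the smaller member were joined into copy groups, which gave 13 groups of 2 to 8 members and 14 single members.

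Estimated counts in genes summed to between 17526633 and 85432410 per library. The transcripts of the targeted genes were still counted in dKO libraries, so gene totals do not check the genotype labels. H2afy was at 73.3–83.1 TPM in dKO tumours and 87.7–101 TPM in WT tumours, and at 94.2–99.3 TPM in dKO iDFs and 151–152 TPM in WT iDFs at 0 min. H2afy2 was at 8.92–12.3 TPM in dKO CAFs and 14.6–20.8 TPM in WT CAFs (log2 fold change −0.81, edgeR adjusted p = 0.0022), and at or below 0.242 TPM in CD8 T cells of both genotypes. The sex labels of all 36 libraries fitted the expression of sex-linked genes. The CD8 T cell markers summed to 4210–4750 TPM in dKO and 3980–7790 TPM in WT CD8 T cells, and fibroblast markers to 49900–65800 TPM in dKO and 42600–53700 TPM in WT CAFs.

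Reads of the cluster were a small part of each library. The 57 members summed to 91.6–269 CPM (counts scaled to the size of the library) in dKO tumours (median 144) and 204–458 CPM in WT tumours (median 300), and to 272–274 CPM in dKO and 300–308 CPM in WT iDFs at 0 min. Per length, Gm14325 had the highest mean level in every experiment, at 41.3 TPM in bulk tumours, 28.3 in CD8 T cells, 47.9 in CAFs and 49.4 in iDFs. The next 4 were Gm14326, Gm4631, Zfp970 and Gm4724 in tumours (11.2–22.0 TPM), Gm4724, Gm14305, Zfp970 and Gm14326 in iDFs (20.5–28.6 TPM), and Gm4724, Zfp970, Gm14295 and Gm14326 in CAFs (9.10–13.4 TPM). In CD8 T cells they were Edn3, Gm14326, Gm6710 and Zfp965 (6.73–8.95 TPM). The place of Gm14295 in CAFs rested on 10 counts of a 192-base transcript in 1 WT library, worth 72.8 TPM, and that of Edn3 in CD8 T cells on 1 WT library. Edn3, Zfp831 and the other members can be followed library by library in the heat map of levels.

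**Figure D1:**
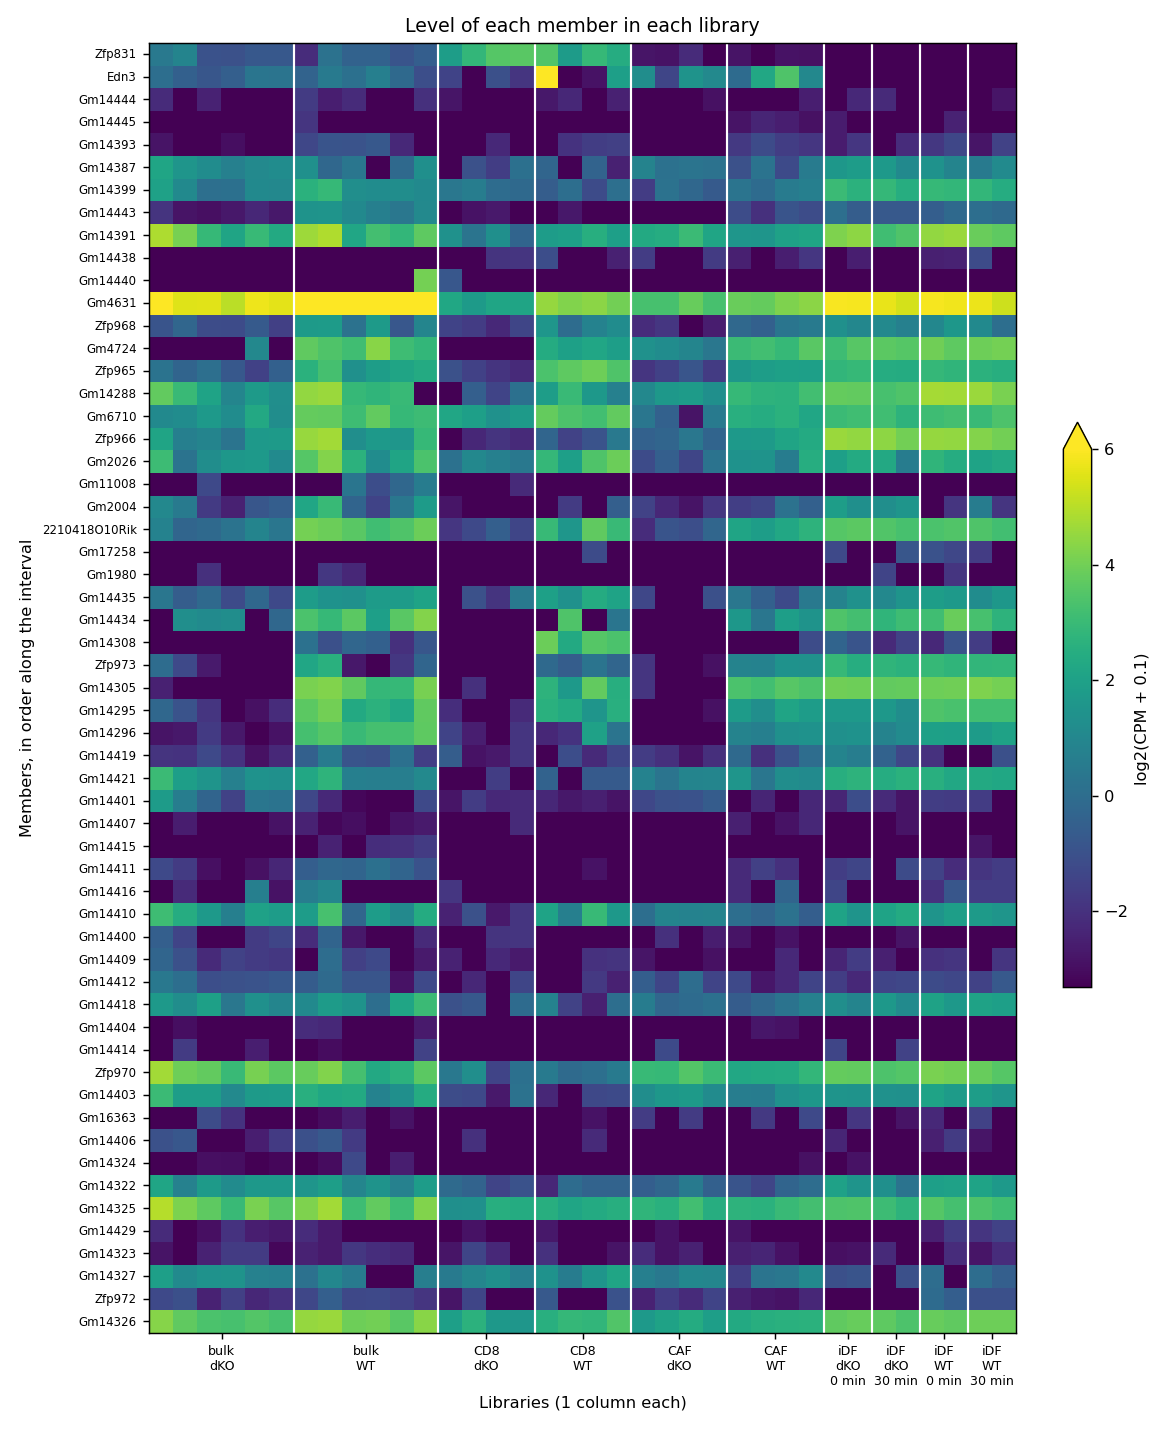
Level of each of the 57 members (rows, in order along the interval) in each of the 36 libraries (columns, dKO left of WT within an experiment), as log2(CPM + 0.1), where the darkest colour is 0 CPM and values above 6 share the brightest colour. Several rows between Gm4724 and Gm14296 are darker in dKO than in WT tumours, CD8 T cells and CAFs, while Gm14305, 2210418O10Rik and Zfp965 have similar colours in dKO and WT iDFs.

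For each experiment the question was which members differ between dKO and WT. Calls needed both a p under 0.05 in edgeR's quasi-likelihood test, after Benjamini–Hochberg adjustment over every tested gene, and a log2 fold change beyond 0.75 in either direction. The low-count filter passed 38 members in at least 1 experiment, 19 in all 4 and 19 in none. A member can pass it through the genotype in which it is high. This was so for WT alone with Gm14443, Gm14305 and Gm14296 in tumours. It was so with 8 members in CD8 T cells (Zfp968, Gm4724, Zfp965, Gm14308, Zfp973, Gm14305, Gm14295 and Gm14410). In CAFs it was so with 6 (Zfp968, Gm14434, Zfp973, Gm14305, Gm14295 and Gm14296). All of those in tumours and CAFs, and Gm4724, Zfp965, Gm14308, Gm14305 and Gm14295 in CD8 T cells, were called. In these experiments 0 members passed through dKO alone. In iDFs Zfp972 passed through WT alone and Gm14419 through dKO alone, and both were called at 0 min. Members that passed through WT alone were set to come out lower in dKO, and Gm14419 was set to come out higher in dKO iDFs. The direction and lack of overlap of all these members are no support of their own.

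In bulk tumours 4 of 35 tested members were called, all lower in dKO, against 0.0276% of all 18097 tested genes called lower (5 genes). Gm14305, a protein with 14 fingers, was at 0, 0 and 0.0803 CPM (lowest, median and highest) in dKO tumours and at 7.27, 15.1 and 18.8 CPM in WT tumours. Over the group, 2 counts in 1 dKO tumour stood against 3901 counts in 6 WT tumours, 2080-fold lower (counting interval 574–17100, edgeR adjusted p = 0.000791). Gm14305 was thus almost unread in every dKO tumour and present in every WT tumour. Gm14296, with 1 finger motif, was at 0, 0.0463 and 0.203 CPM in dKO and at 7.82, 9.44 and 12.9 CPM in WT tumours (log2 fold change −7.46, SE 0.51, adjusted p = 0.00078). Its near copy 2210418O10Rik was at 0.724, 1.11 and 1.76 CPM in dKO and at 8.65, 13.6 and 16.3 CPM in WT tumours (log2 fold change −3.21, SE 0.25, adjusted p = 0.00102). Gm14443, which shared only a few percent of its windows with other genes, was at 0.029, 0.0512 and 0.161 CPM in dKO and at 1.21, 2.04 and 2.7 CPM in WT tumours (log2 fold change −4.68, SE 0.43, adjusted p = 0.00317). For each of these 4 genes the dKO and WT tumours did not overlap.

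A further set of members was lower in every dKO tumour than in any WT tumour without passing the test. In all, 11 of 35 members were non-overlapping in this way, against 0.359% of all tested genes. Gm4724, with 13 fingers, had 0 counts in 5 dKO tumours and 1.94 CPM in dKO replicate 5, against 7.04–20.3 CPM in WT (log2 fold change −6.75, adjusted p = 0.0953). Gm14295, with 25 fingers, was at 0, 0.149 and 0.762 CPM in dKO and at 4.75, 9.46 and 16.2 CPM in WT tumours. Zfp965 was at 0.247, 0.661 and 1.08 CPM in dKO and at 2.43, 4.71 and 9.35 CPM in WT tumours. The other members of this set were Gm14434, Gm6710, Gm14411 and Gm14435. Within batches 1, 2 and 3 the log2 ratio of dKO to WT means (with 0.1 CPM added) was −6.47, −7.33 and −6.96 for Gm14305, −6.30, −6.08 and −5.63 for Gm14296, −2.80, −3.73 and −3.62 for 2210418O10Rik, −3.23, −4.10 and −3.60 for Gm14443, and −2.69, −2.98 and −2.54 for Zfp965. Of the 35 members, 22 were below 0, with a median log2 fold change of −0.62 against 0.019 over all genes. The 3 that passed the filter through WT alone are among these 22. Each cell type marker list overlapped between dKO and WT tumours, but in bulk tissue fewer cells of a type and less RNA per cell cannot be told apart. The number of members called depended on the test and the model (13 by DESeq2, 8 without the sex term), and each of the 4 genes stayed called under the 19 alternatives fitted gene by gene. With copy groups as units 2 were called, where Gm14296 and 2210418O10Rik form part of 1 unit.

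The highest fold change of a member in tumours was that of Gm14401, with 0.262–3.41 CPM in dKO and 0–0.32 CPM in WT (log2 fold change 4.32, SE 1.31, adjusted p = 0.463). Its groups overlapped and it was not called. Gm4631, the member with the most reads, was at 32.7–73.5 CPM in dKO and at 64.1–118 CPM in WT tumours, also with overlap. Gm14401 was chosen for mention after its values were seen. The same gene had 44 counts in 4 dKO CAF libraries and 5 counts in 2 WT CAF libraries, too few for the filter.

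**Figure D2:**
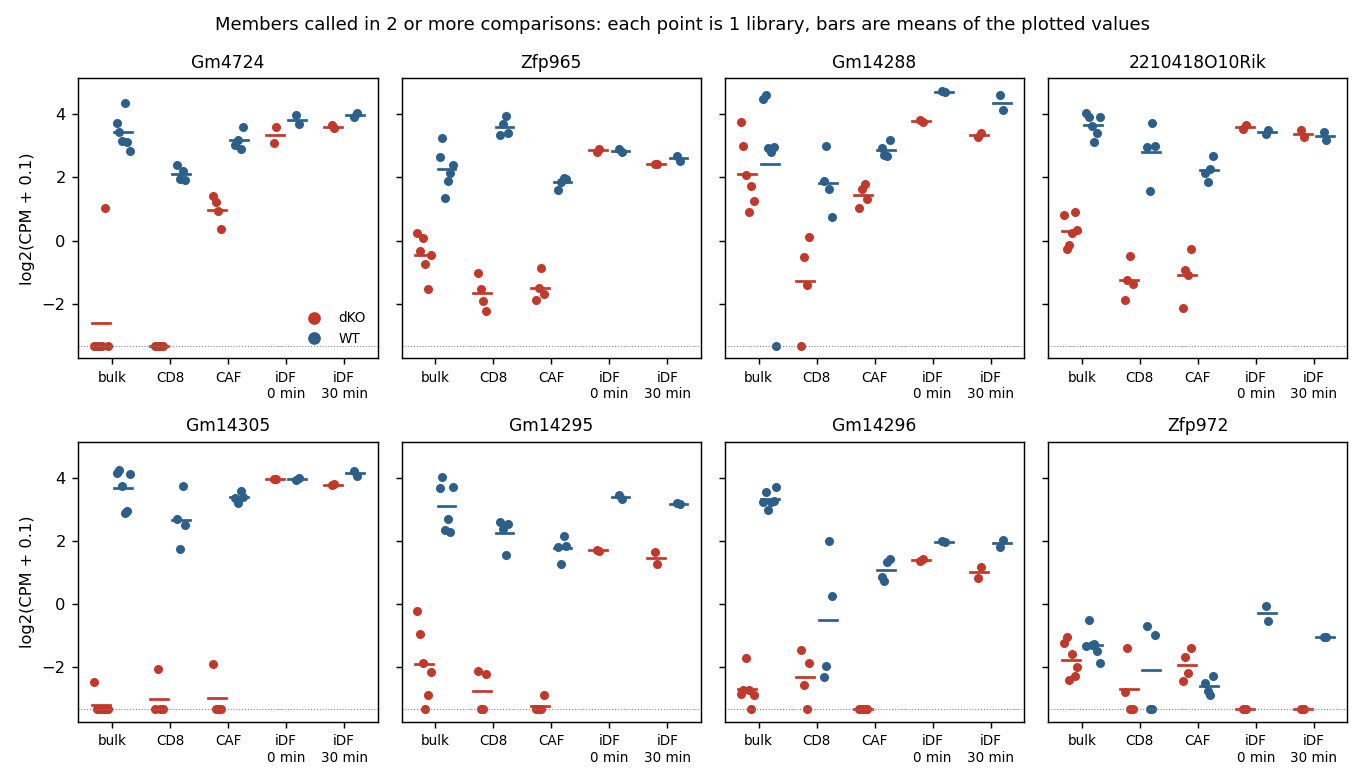
Level of the 8 members called in 2 or more of the 5 comparisons of dKO with WT, as log2(CPM + 0.1), with 1 point per library, bars at the mean of the plotted values and a dotted line at 0 CPM. Gm14305, Gm4724, Gm14295, Gm14296, 2210418O10Rik and Zfp965 separate dKO (red) from WT (blue) in tumours and CAFs. In iDFs the genotypes lie closer for Gm14305, 2210418O10Rik and Zfp965. With 2 libraries against 2, Gm14305 and Zfp965 overlap at 0 min and are lower in dKO without overlap at 30 min. 2210418O10Rik is higher in dKO without overlap at 0 min and overlaps at 30 min.

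In CD8 T cells 7 of 23 tested members were called, all lower in dKO, against 0.234% of all 14944 tested genes called lower (35 genes). Zfp965, with 6 fingers, was at 0.395, 0.249, 0.166 and 0.116 CPM in the 4 dKO libraries and at 10.1, 12.8, 15.2 and 10.6 CPM in the 4 WT libraries (log2 fold change −5.74, SE 0.45, edgeR adjusted p = 0.00112). Gm4631 was at 4.61, 3.24, 4.32 and 4.23 CPM in dKO and at 22.7, 18.8, 20.6 and 15.9 CPM in WT (log2 fold change −2.25, SE 0.25, adjusted p = 0.00885). These 2 genes stayed called under the 14 alternatives fitted gene by gene. Gm14308 had 0 counts in every dKO library and was at 14.8, 4.99, 11.6 and 10.2 CPM in WT, at least 302-fold lower (adjusted p = 0.0194). Gm4724 also had 0 counts in dKO, against 5.18, 3.79, 4.47 and 3.66 CPM in WT, at least 122-fold lower (adjusted p = 0.032). Both genes share nearly all of their windows with other copies. Gm14305 was at 0, 0.142, 0 and 0 CPM in dKO and at 6.36, 3.22, 13.3 and 5.6 CPM in WT, and Gm14295 at 0.132, 0, 0 and 0.116 CPM in dKO and at 5.89, 5.09, 2.8 and 5.72 CPM in WT. Summed over the group, Gm14305 was 162-fold lower (62.9–596, adjusted p = 0.0261) and Gm14295 82.3-fold lower (35–255, adjusted p = 0.0488). 2210418O10Rik was at 0.175, 0.32, 0.609 and 0.289 CPM in dKO and at 7.74, 2.86, 13.2 and 7.93 CPM in WT (log2 fold change −4.45, SE 0.67, adjusted p = 0.037).

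All 4 dKO libraries were below all 4 WT libraries for 15 of 23 members, against 2.96% of all tested genes. Besides the 7 called members the set held Gm2026, Gm6710, Gm14288, Gm14391, Gm14410, Gm14435, Zfp968 and Zfp973. Of the 23 members, 21 had a fold change below 0, with a median of −2.56 against 0.0015 over all genes. The 8 that passed the filter through WT alone are among these 21 and among the 15 without overlap. The count of 7 called members changed with every library left out, to 4 without WT replicate 2 or dKO replicate 4, to 3 without dKO replicate 2 or 3, and to 2 without WT replicate 1, 3 or 4 or dKO replicate 1. DESeq2 called 13. Of 14 alternatives fitted gene by gene, the call was lost under 4 for Gm14308, 7 for Gm4724, 8 each for Gm14305 and 2210418O10Rik and 9 for Gm14295 (adjusted p up to 0.0957, 0.137, 0.116, 0.153 and 0.166 in the order Gm14308, Gm4724, Gm14305, 2210418O10Rik and Gm14295). WT replicate 1 stood apart in the 6 melanocyte markers (187 TPM in sum) and dKO replicate 3 in the 3 neutrophil markers (41.7 TPM), and their part in these results was not tested.

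In CAFs 13 of 27 tested members were called, all lower in dKO, against 4.03% of all 15786 tested genes called lower (636 genes). For each of the 13 the dKO libraries were below the WT libraries, as were 6.87% of all tested genes. Gm14305 was at 0.17, 0, 0 and 0 CPM in dKO and at 10.2, 8.97, 11.8 and 10.4 CPM in WT CAFs, 273-fold lower (106–1000, edgeR adjusted p = 0.000353). Gm14295 was at 0, 0, 0 and 0.035 CPM in dKO, from 1 count, and at 3.36, 2.31, 4.3 and 3.48 CPM in WT, 359-fold lower (64.0–14200, adjusted p = 0.00014). Gm14296 had 0 counts in dKO and was at 1.72, 1.54, 2.43 and 2.6 CPM in WT, at least 73.8-fold lower (adjusted p = 0.00136). With Gm14434, also at 0 in dKO and at 1.16–3.6 CPM in WT (at least 93.3-fold lower, adjusted p = 0.00549), these members were at the edge of detection in dKO CAFs.

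Other called members were reduced but still read in dKO CAFs. Zfp965 was at 0.17, 0.251, 0.449 and 0.21 CPM in dKO and at 2.93, 3.52, 3.86 and 3.76 CPM in WT (log2 fold change −3.70, SE 0.27, adjusted p = 0.000311). 2210418O10Rik was at 0.128, 0.43, 0.367 and 0.734 CPM in dKO and at 4.3, 3.52, 4.67 and 6.36 CPM in WT (log2 fold change −3.50, SE 0.34, adjusted p = 0.00109). Gm4724 was at 2.55, 2.22, 1.8 and 1.19 CPM in dKO and at 7.98, 8.97, 7.42 and 12.1 CPM in WT (log2 fold change −2.26, SE 0.26, adjusted p = 0.00215). Gm4724 had counts in every dKO CAF library and in no dKO CD8 library, and the difference of its genotype effect between the cell types did not pass the test (adjusted p = 0.0705). Gm14288, which encodes a KRAB exon without fingers, was at 1.96, 3.01, 3.35 and 2.38 CPM in dKO and at 7.55, 6.46, 6.28 and 8.89 CPM in WT (log2 fold change −1.45, SE 0.20, adjusted p = 0.00505), but at 0.10 when the model included transcript length. The other 5 were Zfp973 (log2 fold change −5.31, dKO 0–0.17 and WT 1.64–2.61 CPM), Zfp968 (−3.25, dKO 0–0.179 and WT 0.627–1.3 CPM), Gm6710 (−2.79, dKO 0.0408–1.29 and WT 4.5–6.1 CPM, adjusted p = 0.0271), Gm2026 (−2.37, dKO 0.286–1.08 and WT 1.4–5.52 CPM, adjusted p = 0.0328) and Zfp966 (−2.28, dKO 0.638–1.18 and WT 3.17–5.06 CPM). The call of Gm2026 was lost under 8 of 14 alternatives (adjusted p up to 0.0906) and that of Gm6710 under 7 of 14 (adjusted p up to 0.105), most of them with 1 library left out. That of Zfp968 was lost without dKO replicate 4 (adjusted p = 0.0537).

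Other members were closer between genotypes or higher in dKO. Gm4631 was lower in dKO CAFs by less than the threshold (log2 fold change −0.64, adjusted p = 0.0188). All dKO libraries were above all WT libraries for Zfp970 (7.42–11.4 CPM in dKO and 4.69–7.06 CPM in WT, log2 fold change 0.66, adjusted p = 0.0301) and Gm14391 (4.37–8 CPM in dKO and 2.8–4.25 CPM in WT, log2 fold change 0.73, adjusted p = 0.058), and neither was called. That is 2 of 27 members, beside 1119 of all 15786 tested genes. Over the 27 members the median was −1.30 against 0.0018 over all genes, with 19 below 0. The 6 that passed the filter through WT alone are among these 19. The 6 melanocyte markers summed to 76–350 TPM in dKO and 388–566 TPM in WT CAFs, with none of the 6 at 0 in all libraries, and the 3 keratinocyte markers to 4.23–27.7 TPM in dKO and 30.9–66.2 TPM in WT. Their part in the results was not tested. When copy groups were counted as single units 5 were called.

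In iDFs at 0 min, of 33 tested members 4 were called lower and 2 higher in dKO, against 5.11% and 3.93% of all 15047 tested genes. Gm14305 was at 15.5 and 15.3 CPM in dKO and at 15.2 and 15.6 CPM in WT iDFs at 0 min, and 2210418O10Rik at 11.5 and 12.6 CPM in dKO and at 10.2 and 11.1 CPM in WT. Zfp965 was at 6.88 and 7.41 CPM in dKO and at 7.35 and 6.84 CPM in WT. The log2 fold changes were 0.18 for 2210418O10Rik and 0.01 for Zfp965, with overlapping libraries for Gm14305 and Zfp965. Gm14305, almost unread in dKO tumours, was read in both dKO iDF libraries.

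The members called lower in iDFs at 0 min were Zfp972, Gm14295, Gm14288 and Gm14418. Gm14295 was at 3.19 and 3.1 CPM in dKO and at 10.7 and 10.0 CPM in WT at 0 min (log2 fold change −1.73, SE 0.14, adjusted p = 3.4e-05), and at 3.01 and 2.29 CPM in dKO and at 9.01 and 8.89 CPM in WT at 30 min (log2 fold change −1.75, SE 0.15, adjusted p = 4.5e-05). Gm14288 was at 13.9 and 13.5 CPM in dKO and at 26.4 and 25.7 CPM in WT at 0 min (log2 fold change −0.93, SE 0.13, adjusted p = 0.00101), and at 9.7 and 10.6 CPM in dKO and at 24.0 and 17.4 CPM in WT at 30 min (log2 fold change −1.03, SE 0.14, adjusted p = 0.000785). Neither gene overlapped between genotypes at either time, which with 2 libraries against 2 held, in this direction, for 5238 of all 15047 tested genes at 0 min and 5059 at 30 min. The calls of Gm14288 were lost when the model included transcript length (adjusted p = 0.616 at 0 min and 0.175 at 30 min). Zfp972 had 0 counts in all 4 dKO iDF libraries and was at 0.858 and 0.591 CPM in WT at 0 min and at 0.384 and 0.387 CPM in WT at 30 min, at least 14.5-fold and at least 6.32-fold lower (adjusted p = 0.00115 and 0.00459). It was not absent from dKO mice, with 0.087–0.382 CPM in dKO and 0.174–0.601 CPM in WT tumours. Zfp972 overlaps Gm14327 on the other strand. Gm14418 was lower by less (1.76–2.33 CPM in dKO and 3–4.07 CPM in WT at 0 min, log2 fold change −0.79, adjusted p = 0.0367), and its call was lost under 7 of 15 alternatives (adjusted p up to 0.554).

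Gm2004 and Gm14419, near copies with 17 fingers each, were called higher in dKO iDFs at 0 min. Gm2004 had 178 counts in dKO and 4 in WT (log2 fold change 5.14, SE 1.13, adjusted p = 0.0174), and Gm14419 had 95 counts in dKO and 4 in WT (log2 fold change 4.26, SE 1.09, adjusted p = 0.0241). The call was lost under 3 of 15 alternatives for Gm2004 (adjusted p up to 0.0872) and 5 of 15 for Gm14419 (adjusted p up to 0.109). Gm2004 and Gm14419 share a copy group with Gm14295, and that group summed to 73.0% of the WT mean. At 30 min Gm2004 had 126 counts in dKO and 37 in WT, Gm14419 had 24 in dKO and 9 in WT, and neither was called. The count of called members at 0 min was 3 without dKO 0 min replicate 1 and 3 without WT 0 min replicate 1. At 30 min 4 members were called lower, against 5.08% of all tested genes, namely Zfp972, Gm14295, Gm14288 and Gm14296, the last at 1.68 and 2.16 CPM in dKO and at 3.37 and 3.99 CPM in WT (log2 fold change −0.94, SE 0.20, adjusted p = 0.00595, and 0.051 by DESeq2). The share of members called lower in iDFs, 4 of 33 at each time, can be set against 5.11% and 5.08% of all genes. The median log2 fold change of members was −0.14 at 0 min and −0.26 at 30 min.

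With serum 1 member was called, in both genotypes. Gm14391, with 16 fingers, was at 18.1 and 21.2 CPM at 0 min and at 8.65 and 10.6 CPM after 30 min in dKO iDFs (log2 fold change −1.03, SE 0.13, edgeR adjusted p = 0.00132), against 1.14% of all genes called lower with serum in dKO. In WT iDFs it was at 22.3 and 24.2 CPM at 0 min and at 14.6 and 12.8 CPM after 30 min (log2 fold change −0.76, SE 0.12, adjusted p = 0.00792), against 0.412% of all genes. Of 379 tested zinc finger genes outside the interval, 42 were called lower and 5 higher with serum in dKO, and 13 lower and 4 higher in WT. Their median log2 fold change was −0.286 in dKO and −0.209 in WT, beside −0.291 and −0.217 for the members. In the serum comparison of dKO 3 members were called without dKO 30 min replicate 1, and in that of WT 0 were called without WT 0 min replicate 2 or WT 30 min replicate 2. With transcript length in the model Gm14391 was not called in dKO (adjusted p = 0.0641) or WT (adjusted p = 0.16). The interaction of genotype and serum called 0 of 33 members by edgeR and by DESeq2, with 2 at an unadjusted p under 0.05.

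Differences of the genotype effect between experiments were tested in 1 fit over all 36 libraries. The effect in iDFs at 0 min was higher than in CAFs for 6 of 45 members, against 0.32% of all 22818 genes in that fit, and lower for 0. These were Gm14296 (difference in log2 fold change 8.8, SE 1.84, adjusted p = 0.0197), Gm14305 (7.95, SE 1.14, adjusted p = 0.000238), Gm14443 (6.85, SE 1.27, adjusted p = 0.00636), Gm14295 (6.34, SE 1.47, adjusted p = 0.0373), Zfp965 (3.71, SE 0.66, adjusted p = 0.00333) and 2210418O10Rik (3.67, SE 0.70, adjusted p = 0.00646). Differences that involve groups with 0 counts, as for Gm14296 and Gm14443 in dKO CAFs, depend on the prior count and are no bounds.

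The effect in CD8 T cells was lower than in CAFs for 3 of 45 members, against 1.67% of all genes, and higher for 1, against 1.91%. Gm14410 was at 0.0553–0.391 CPM in dKO and at 1.51–7.73 CPM in WT CD8 T cells, and at 0.935–1.76 CPM in dKO and at 0.597–1.03 CPM in WT CAFs (difference −5.39, SE 0.90, adjusted p = 0.000788). Its mean was thus lower in dKO than in WT in CD8 T cells and higher in CAFs, and it was called in neither alone. Gm4631 (−1.66, SE 0.30, adjusted p = 0.00181) and Zfp965 (−2.03, SE 0.58, adjusted p = 0.044) had lower fold changes in CD8 T cells, and the call of Zfp965 was lost without the low-count filter (adjusted p = 0.0924). Gm14443 (7.5, SE 1.61, adjusted p = 0.0272) was at or under 0.0553 CPM in CD8 T cells of both genotypes, so its difference rests on 3 counts there. Between bulk tumours and CAFs 0 of 45 members differed by edgeR and by DESeq2, with 3 at an unadjusted p under 0.05.

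Some of the 8 members called in more than 1 comparison were not called elsewhere. Gm14288 was at 1.78, 3.68 and 13.3 CPM (lowest, median and highest) in dKO and at 0, 7.61 and 24.3 CPM in WT tumours, which overlapped, and at 0, 0.605, 0.277 and 0.984 CPM in dKO and at 3.59, 7.85, 3.03 and 1.57 CPM in WT CD8 T cells, which did not (log2 fold change −3.03, edgeR adjusted p = 0.311). Gm14296 was under the low-count filter in CD8 T cells, with 0.263, 0.0711, 0 and 0.174 CPM in dKO and 0.103, 0.156, 3.9 and 1.09 CPM in WT. In iDFs at 0 min it was at 2.48 and 2.59 CPM in dKO and at 3.84 and 3.76 CPM in WT. Gm4724 was at 8.44 and 11.9 CPM in dKO and at 15.6 and 12.7 CPM in WT iDFs at 0 min, and at 12.4 and 11.6 CPM in dKO and at 15.1 and 16.4 CPM in WT at 30 min. Zfp972 was at 0.0439, 0.285, 0 and 0 CPM in dKO and at 0.513, 0, 0 and 0.403 CPM in WT CD8 T cells, and at 0.085, 0.215, 0.122 and 0.28 CPM in dKO and at 0.0782, 0.0482, 0.0367 and 0.105 CPM in WT CAFs. It overlapped between genotypes in every mouse experiment. At 30 min Gm14305 was at 13.5 and 13.7 CPM in dKO and at 18.4 and 16.6 CPM in WT iDFs (log2 fold change −0.36, adjusted p = 0.00949), short of the fold threshold. 2210418O10Rik was then at 11.1 and 9.61 CPM in dKO and at 10.7 and 9.02 CPM in WT, and Zfp965 at 5.32 and 5.25 CPM in dKO and at 6.32 and 5.63 CPM in WT.

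**Figure D3:**
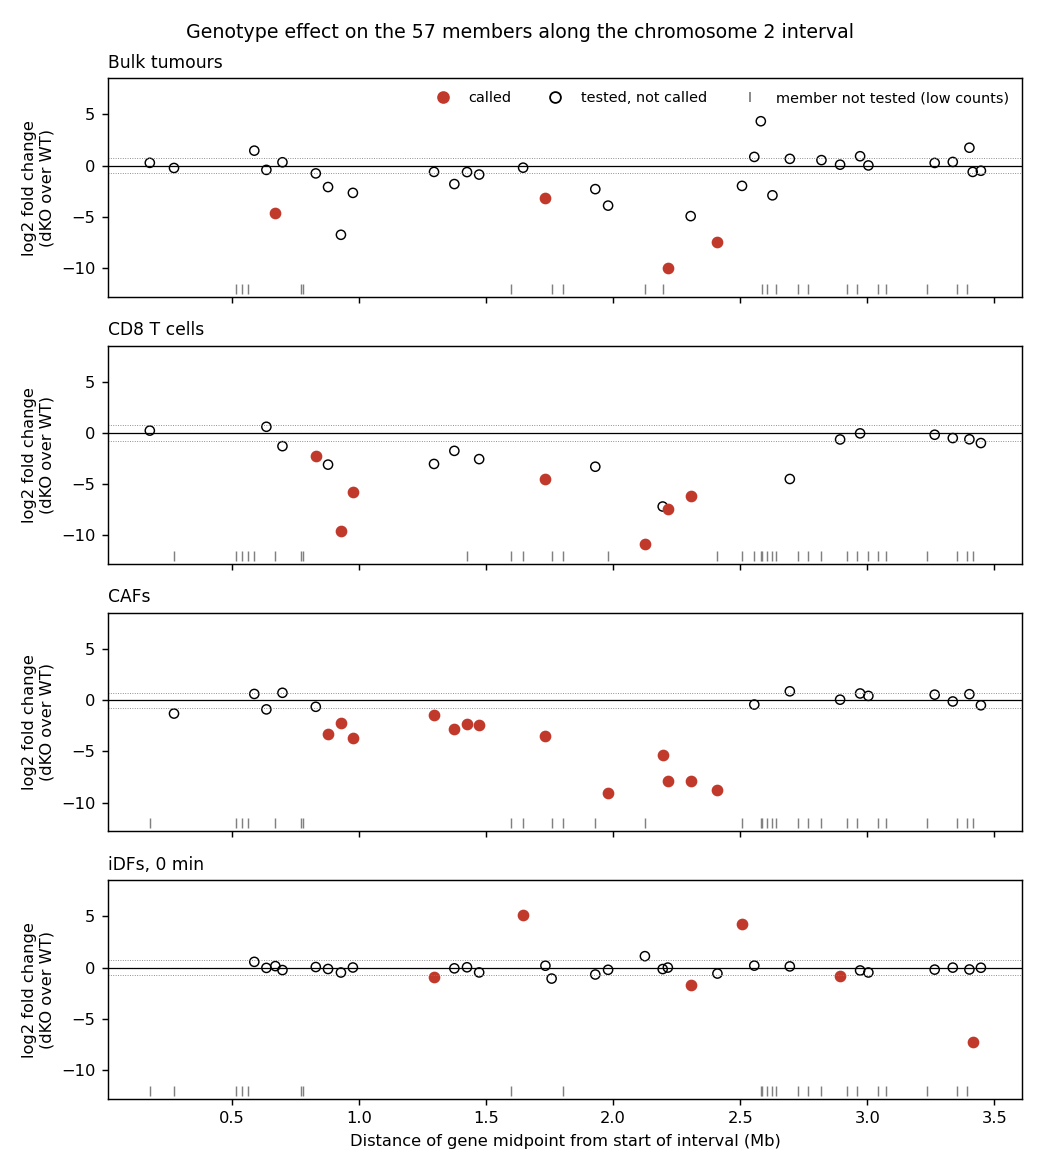
Log2 fold change of dKO over WT for each tested member against the distance of its midpoint from the start of the interval (Mb) in bulk tumours, CD8 T cells, CAFs and iDFs at 0 min, with filled points for called members, dotted lines at the fold threshold and ticks for members under the low-count filter. In tumours, CD8 T cells and CAFs the filled points lie between 0.671 Mb (Gm14443) and 2.41 Mb (Gm14296), and the outermost filled points set these limits.

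The members called in the mouse experiments lay together on the chromosome. The 16 members called in tumours, CD8 T cells or CAFs all lay between Gm14443, 0.671 Mb from the start of the interval, and Gm14296 at 2.41 Mb, and this stretch of 1.739 Mb held 24 of the 57 members, with 7 before it and 26 after it. Its limits were set by the called members, so what follows is a description with no test. The members of the stretch summed to 49.8–139 CPM in dKO and 158–341 CPM in WT tumours (33.9% of the WT mean), to 12.2–14.3 CPM in dKO and 92.5–122 CPM in WT CD8 T cells (12.1%), and to 22.5–29.5 CPM in dKO and 67.7–96.8 CPM in WT CAFs (30.4%). dKO and WT libraries did not overlap in any of the 3. The 26 members after the stretch summed to 38.2–120 CPM in dKO and 41.0–106 CPM in WT tumours, and to 27.6–38.1 CPM in dKO and 23.1–34.3 CPM in WT CAFs, with overlap in both. In CD8 T cells they were at 11.4–15.9 CPM in dKO and 16.8–29.0 CPM in WT, without overlap (56.9% of the WT mean). The lower level in dKO CD8 T cells was thus not confined to the stretch. Gm14411, which lies after the stretch, did not overlap in tumours. The 7 members before the stretch, with Edn3 among them, overlapped in all 3 experiments. They were at 88.3% of the WT mean in tumours, 21.7% in CD8 T cells and 53.7% in CAFs. In iDFs at 0 min the stretch summed to 203 and 204 CPM in dKO and to 231 CPM in both WT libraries (88.2%), and 10 of the 16 members had a fold change below 0. After the stretch, 2 members were called lower and 1 higher in dKO iDFs at 0 min.

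**Figure D4:**
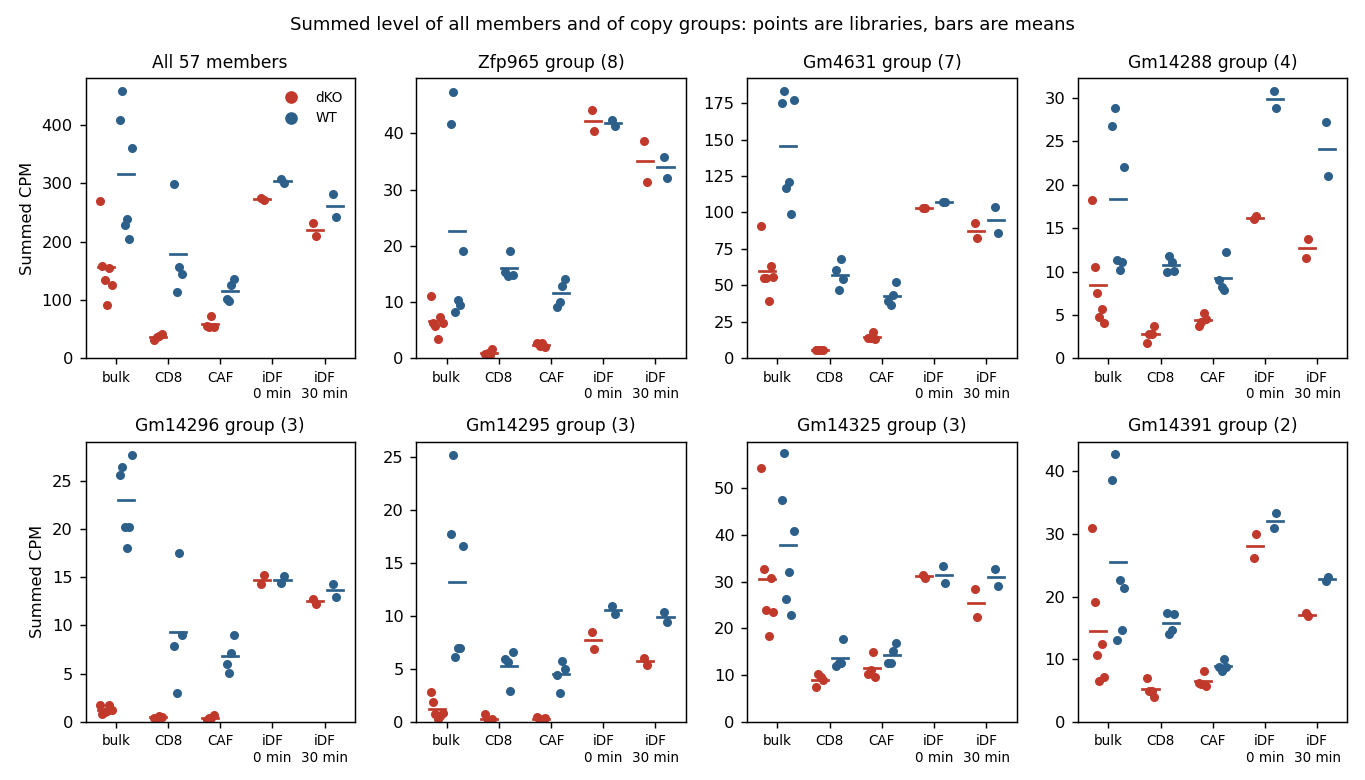
Summed CPM of all 57 members and of 7 copy groups (number of members in brackets), with 1 point per library and bars at group means, dKO left of WT in each experiment. The Gm14296 group sits at 0.777–1.76 CPM in dKO and 18.0–27.7 CPM in WT tumours and at 14.3–15.2 CPM in dKO and 14.4–15.1 CPM in WT iDFs at 0 min, whereas the Gm14325 group overlaps in tumours and CAFs.

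Sums over a copy group do not depend on how reads were split within it, but still depend on the split between groups. Of the windows of the smaller gene, Gm4724 and Gm6710, in different groups, shared 38.3%, and Gm14410 and Gm14326 33.8%. Not every pair within a group was nearly identical, as Gm14305 and Gm14410 shared 38.9%. The group of 7 with the same KRAB exon as Gm14305 (Gm4631, Gm4724, Gm2026, Gm14434, Gm14308, Gm14305 and Gm14410) summed to 39.5–90.5 CPM in dKO and 98.8–183 CPM in WT tumours, to 5.62–5.92 CPM in dKO and 46.6–68.4 CPM in WT CD8 T cells, and to 13.6–17.8 CPM in dKO and 36.4–52.2 CPM in WT CAFs. No dKO library reached a WT library in these 3 experiments. In iDFs at 0 min the same sum was 95.7% of WT. The group of 2210418O10Rik, Gm17258 and Gm14296 was at 5.47% of the WT mean in tumours, 5.09% in CD8 T cells and 6.11% in CAFs, and at 99.9% in iDFs at 0 min. The group of Gm14295, Gm2004 and Gm14419 was at 8.8%, 5.34% and 6.41% of WT in tumours, CD8 T cells and CAFs and at 73.0% in iDFs at 0 min. The group of 8 that holds Zfp965, Zfp966, Zfp968 and Zfp973 was at 29.6%, 6.39%, 21.1% and 101% in the same order, with overlap in tumours.

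The Gm14288 group (with Gm14440, Gm14435 and Gm14327) was at 46.0% of WT in tumours, with overlap, 26.1% in CD8 T cells, 47.9% in CAFs and 54.3% in iDFs at 0 min. The Gm14325 group (with Gm14326 and Gm14399) was at 80.8% in tumours, 66.0% in CD8 T cells, 80.1% in CAFs and 99.1% in iDFs at 0 min, and the Gm14391 group (with Gm6710) at 56.8%, 32.8%, 72.6% and 87.5%.

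The split between copies varied from library to library. Gm14440 had 567 counts (16.5 CPM) in WT tumour 6 and 0 in every other tumour, and Gm14288, which has no window of its own, had 0 in that tumour and 6.82–24.3 CPM in the other WT tumours. In WT CD8 T cells Gm14434 was at 0, 10.6, 0 and 1.13 CPM. Some differences lay in single transcripts. The 814-base transcript Gm4724-204 had 0 counts in dKO tumours against 2558 in WT tumours, 0 in dKO against 384 in WT CD8 T cells, and 17 in dKO against 646 in WT CAFs, and at 0 min it had 378 in dKO against 335 in WT iDFs. Gm14308-203 accounted for 894 of 944 counts of Gm14308 in WT CD8 T cells and had 0 counts in every other group, so most of the level of Gm14308 there was this transcript.

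**Figure D5:**
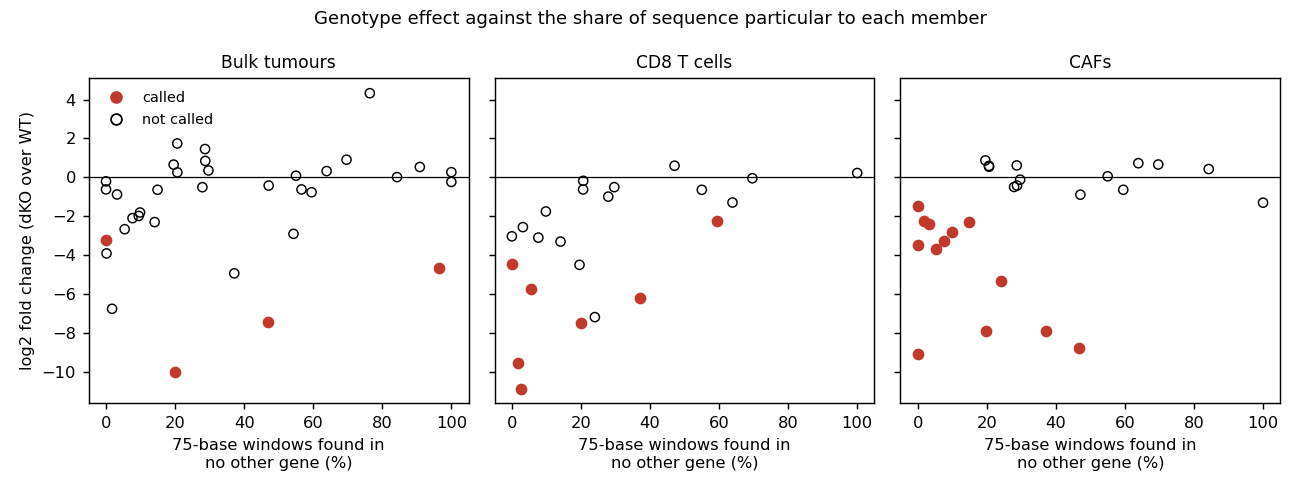
Log2 fold change of dKO over WT for each tested member against the percent of its 75-base windows found in no other gene, in bulk tumours, CD8 T cells and CAFs, with filled points for called members. Filled points occur from 0% (2210418O10Rik) to 96.3% (Gm14443), and in CAFs none of the 6 members with at least 50% unique sequence is filled.

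Called members were found from 0% to 96.3% unique sequence. In CAFs all 8 tested members with under 10% unique windows were called, as were 5 of 13 with 10 to 50% and 0 of 6 with 50% or more. The counts were 1 of 10, 2 of 13 and 1 of 12 in tumours, and 4 of 8, 2 of 10 and 1 of 5 in CD8 T cells. Gm14443, with 96.3% of its windows found in no other gene, and Gm4631, with 59.5%, were the members called in mice with the most sequence of their own. Over all 14 dKO mouse libraries 4 members had 0 counts, among them Gm14308 with 1099 counts in the 14 WT mouse libraries. The others were Gm14445, Gm17258 and Gm14415, with only 10, 9 and 21 counts in the WT mouse libraries. The share of all genes at 0 in dKO was not counted. Gm14305 had 10 counts in 3 of 14 dKO libraries and 5640 counts in all 14 WT libraries.

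The 2 protein-coding members at the start of the interval, Edn3 and Zfp831, share no 75-base window with any other gene. Edn3, a secreted endothelin that acts on melanocytes, was at 0.263, 0, 0.387 and 0.174 CPM in dKO and at 153, 0, 0.0379 and 3.74 CPM in WT CD8 T cells, where WT replicate 1 also carried the highest melanocyte marker level. In CAFs it was at 0.287–2.69 CPM in dKO and 0.861–10.8 CPM in WT (log2 fold change −1.30, adjusted p = 0.344), and it had 0 counts in all iDFs. Zfp831, with at most 1 finger motif in an annotated coding sequence, was at 3.55, 7.15, 11.5 and 12 CPM in dKO and at 11, 3.38, 7.5 and 5.36 CPM in WT CD8 T cells. Neither gene was called in any comparison.

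Genes of the pathway and genes around the interval were set beside the members. Of 25 genes of the KRAB corepressor machinery, which included Trim28 and Setdb1, 24 were tested in each mouse experiment and 25 in iDFs. By edgeR 0 were called in tumours, CD8 T cells, CAFs or iDFs at 0 min, and 1, Atf7ip2, was lower in dKO iDFs at 30 min. At an unadjusted p under 0.05 were 2 of 24 in tumours (1360 of all 18097 genes), 2 of 24 in CD8 T cells (1531 of 14944), 6 of 24 in CAFs (4098 of 15786) and 12 of 25 in iDFs at 0 min (6303 of 15047), shares close to those of all genes. In the 2 Mb on each side of the interval 0 of 28 tested genes were called in tumours (3 at an unadjusted p under 0.05), 0 of 21 in CD8 T cells (2) and 2 of 25 in CAFs (Pmepa1 and Gm14292, both lower in dKO). Among 419 other zinc finger genes, 0 of 381 tested were called in tumours (42 at an unadjusted p under 0.05), 2 of 323 in CD8 T cells and 11 of 370 in CAFs. Of the 11 in CAFs, 6 were lower and 5 higher in dKO. Over all 15786 genes tested in CAFs, 636 (4.03%) were called lower and 229 higher, and over all 14944 in CD8 T cells 35 lower and 39 higher. The unadjusted counts of both lists can be set against the same counts over all genes. In iDFs at 0 min 16 of 379 of the other zinc finger genes were called, 15 of them lower in dKO. Over all tested genes there, 5.11% were called lower and 3.93% higher.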

How the data were processed

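RNA-seq reads of 75 bases (single end) from 36 libraries were quantified per transcript by the authors with Salmon 1.2.1 on Gencode release 25 (GRCm38.p6). The deposited files hold, for each transcript, an estimated count, in which the authors' software divided reads shared by similar transcripts, and a TPM value (scaled for transcript length and library size). Bulk, CAF and iDF libraries were poly-A selected with a directional kit and CD8 libraries were made with a low-input kit, so levels are compared within an experiment.

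Estimated counts and TPM were summed per gene with Gencode release 21 (GRCm38), which gave a gene to 99.15% of 140992 transcripts, and counts were rounded to whole numbers. In each library 0.246–0.521% of counts had no gene and were left out. Genes were tested with edgeR 4.0.16 (robust quasi-likelihood test, TMM scaling, filterByExpr with a count minimum of 10 and a total minimum of 15) in R 4.3.3. Bulk tumours were modelled with batch, sex and genotype, CD8 T cells and CAFs with sex and genotype, iDFs with 4 groups, and differences between experiments in 1 fit with 10 groups. CPM used the same scaling. Intervals of summed counts are 95% intervals, a group at 0 was set at 3 counts over the group, and both cover counting error only. Windows, exons and finger motifs (C, 2 residues, C, 12 residues, H, 3 or 4 residues, H) were read from the Gencode transcripts. Replicates differed by more than sampling noise (chi-square per gene 4.26–436 over 58 pairs).

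Members and lists were chosen with earlier results of these data known. The genes named are those called in any of the 5 comparisons of dKO with WT (with each library's value where called in 2 or more), the 5 with the highest mean TPM per experiment, protein-coding members that are not C2H2 zinc finger genes, the genes next to the minimum, H2afy and H2afy2. Other members named (such as Gm14401, Gm14410, Gm14411 and Gm14440) were chosen after their values were seen. The tests were also tried on simulated data. Alternatives were DESeq2 1.42.0, no filter, no fold threshold, a length offset, copy groups as units, fits without sex, a replicate block in iDFs and leaving out each library. A further allele that both genotypes carried is not reported here.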

Additional observations from a re-analysis of the deposited data

Results flagged for a closer look

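In 6 of 94 groups of 4 to 6 libraries (6.38%, over 25 members with a mean of at least 20 counts), 1 library lay far from the others by Dixon's criterion, which chance alone gives in about 5% of groups. Edn3 was at 153 CPM in WT CD8 replicate 1 and at 0–3.74 CPM in the other 3. Gm14434 was at 10.6 CPM in WT CD8 replicate 2 and at 0–1.13 CPM in the others. In dKO CAF replicate 3, Gm4631 was at 14.0 CPM against 9.61–9.78 CPM in the other dKO CAFs, and Zfp966 at 1.18 CPM against 0.638–0.717 CPM. In dKO tumour replicate 1, Gm2026 was at 8.39 CPM against 1.08–3.21 CPM in the other dKO tumours, and Gm14326 at 19.8 CPM against 9.58–13.0 CPM.

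The genotype effect (log2 fold change of dKO over WT) differed between experiments in the joint edgeR fit for 10 pairs of member and contrast. Between CD8 T cells and CAFs the difference was −5.39 for Gm14410, −2.03 for Zfp965, −1.66 for Gm4631 and 7.5 for Gm14443. Between iDFs at 0 min and CAFs it was 8.8 for Gm14296, 7.95 for Gm14305, 6.85 for Gm14443, 6.34 for Gm14295, 3.71 for Zfp965 and 3.67 for 2210418O10Rik. Both contrasts use the same CAF libraries.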

How the results depend on the processing

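In tumours (4 called members) DESeq2 called 13, no filter 7, copy groups as units 2 and the fit without sex 8, and leaving out 1 library gave 4 to 5. In CD8 T cells (7) DESeq2 called 13 and no filter 15, and leaving out 1 library gave 2 to 4. In CAFs (13) copy groups gave 5 units and leaving out 1 library 11 to 13. In iDFs at 0 min (6) copy groups gave 2 units and leaving out 1 library 3 to 6, and at 30 min (4) no filter and no fold threshold each gave 7 and leaving out 1 library 4 to 6. For serum in dKO (1) the length offset and copy groups gave 0, the replicate block 2 and leaving out 1 library 1 to 3, and for serum in WT (1) DESeq2 gave 2, copy groups 0 and leaving out 1 library 0 to 1. For the difference of CD8 T cells and CAFs (4) DESeq2 called 8, and for that of iDFs and CAFs (6) it called 10. The interaction of genotype and serum stayed at 0. The 27 copy units became 16 at 10% shared windows and 48 at 90%. Gm14288 in CAFs turned to 0.1015 with the length offset. The cause of these changes was not tested. Over 46 gene results and 563 alternatives, 487 kept their direction and side of the threshold, 75 lost the call and 1 reversed. Dropping the fold threshold could not lose a call, so that alternative was bound to count as kept, here and in the counts of alternatives above.

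Same-numbered iDF libraries had correlated deviations of 0.0511 to 0.212, not all above 0.1, so numbers were not taken as pairs. With the replicate block 6 members were called at 0 min, 5 at 30 min, 2 and 1 with serum in dKO and WT, and 0 for the interaction.

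Identical transcripts limit single members with no unique window. Genotype cannot be told apart from the strain of the interval, which was not measured. iDFs rest on 2 replicates each, from donors of unknown strain.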
